A study of Saccharomyces cerevisiae with 4 samples.

Results

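The stress marker genes of budding yeast (Saccharomyces cerevisiae) are a set of 10 genes that were picked by identifier with the results of these arrays known: HSP12 (YFL014W), HSP26 (YBR072W), HSP42 (YDR171W), HSP30 (YCR021C), DDR2 (YOL052C-A), DDR48 (YMR173W), RTC3 (YHR087W), SIP18 (YMR175W), GRE1 (YPL223C) and HOR7 (YMR251W-A). Of these, 9 had a row in the deposited table, which holds 6207 gene rows, and DDR2 was not analysed here. The study compared cells lacking LOC1 (strain PSY3262) with wild-type cells (strain PSY3259) on 4 arrays of 2 colours, each array holding 1 knockout culture and 1 wild-type culture, and the series describes the 4 as biological replicates carried through separately. Cultures of 50 mL grew in rich medium (YPD) at 30 °C and were taken in early log phase, at an optical density of 0.2 to 0.4. The label of replicate 4 gives the knockout strain name for its wild-type channel also, and the source description, which says wild type, was followed. The sources used here do not say how LOC1 was removed or which other alleles the strains carry. Loc1 is a nuclear protein that binds RNA, helps to build the larger ribosomal subunit and is needed to carry ASH1 mRNA to the bud.

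Yeast answers many kinds of stress with a common set of genes, which the paired transcription factors Msn2 and Msn4 switch on when protein kinase A activity is low. Heat-damaged proteins act through a separate factor, Hsf1, on chaperone genes, and high osmolarity acts through the kinase Hog1. The genes described here are often used as readouts of these routes because many of their mRNAs are scarce in cells growing on glucose and rise steeply under stress.

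The stress markers did not move as 1 group. HSP12 had the highest mean ratio of knockout over wild type of all 6205 genes tested, at 1.17 ± 0.183 deposited log units (SD, n = 4), which is 14.9-fold if the log base is 10. Its mean held place 2 without replicate 3, below SAS2, and place 3 on arrays 1 and 2 alone, below SAS2 and COG5. SAS2 had 2 on arrays 1 and 2 and COG5 had 2 on array 2, the size at which the deposited table ends. RTC3 at 0.433 and HOR7 at 0.254 were also higher in the knockout on all 4 arrays, while DDR48 at -0.362 and HSP30 at -0.198 were lower on all 4. HSP26, HSP42, SIP18 and GRE1 had means between -0.119 and 0.0684. All of these values are a description, because the set was chosen with them in view, and no test of the 9 genes is given. The fit behind the tests of other genes below passed 44.2% of all genes, 22.5% higher and 21.7% lower.

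The direction of every ratio rests on LOC1. As deposited, LOC1 had -1.20, 0.972, -1.07 and 1.31 log units on arrays 1 to 4, while the knockout was labelled with Cy5 on arrays 1 and 4 and with Cy3 on arrays 2 and 3. Arrays of the same labelled orientation opposed each other: over 6191 genes without LOC1 the deposited ratios correlated at r = -0.723 for arrays 1 and 4 and at r = -0.612 for arrays 2 and 3. Arrays 1 and 3, labelled with opposite orientations, correlated at r = 0.642. Genes are not independent replicates, so these correlations are a description, and the dyes leave the direction unsettled. Each array was turned so that LOC1 lay below 0, and "higher in the knockout" is the likely direction in that sense. LOC1 then had -1.20, -0.972, -1.07 and -1.31, with a mean of -1.14 ± 0.146 (SD, n = 4), or 13.7-fold lower if base 10, a size and not a test because the signs were set on it. With the sign turned, HSP12 would have the lowest mean of all genes, RTC3 and HOR7 would be lower in the knockout, and DDR48 and HSP30 would be higher.

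**Figure D1:**
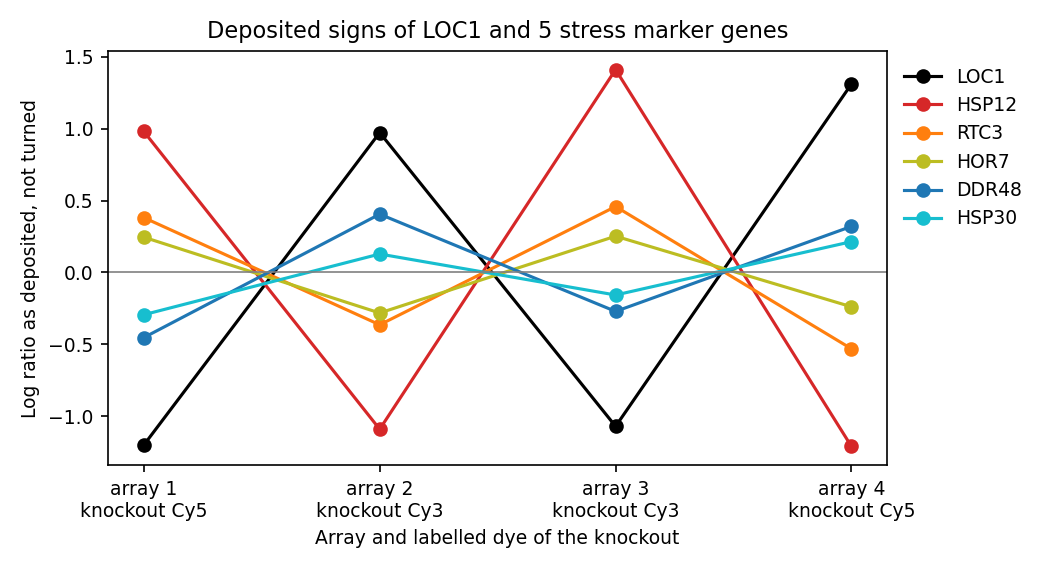
The log ratio as deposited, before any turning (vertical axis, deposited log units), on each of the 4 arrays with the labelled dye of the knockout (horizontal axis), for LOC1 and 5 stress marker genes; lines join the values of 1 gene. The signs of LOC1 and of the 5 stress genes alternate over arrays 1 to 4, HSP12, RTC3 and HOR7 always opposite to LOC1 and DDR48 and HSP30 always with it, while the dye labels run Cy5, Cy3, Cy3, Cy5.

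HSP12 encodes a small, very hydrophilic protein that binds membranes and is among the most strongly stress-induced yeast proteins. Its log ratios on arrays 1 to 4 were 0.98, 1.09, 1.41 and 1.21. Every array was therefore high, and the lowest HSP12 value lay 0.449 above the highest value of RTC3, the next gene in the order. If base 10, the ratios were 9.55-fold, 12.4-fold, 25.6-fold and 16.3-fold. The deposited table ends at a size of 2, which no stress marker reached. Among values short of that limit HSP12 stood first of all genes on arrays 3 and 4 and in place 2 on arrays 1 and 2 (the same places from the bottom with the sign turned). Its mean was 0.31 above that of the gene with the second highest mean. With arrays 1 and 2 alone its mean was 1.04, and with arrays 3 and 4 alone it was 1.31. The mean was 1.10 over the arrays with the knockout labelled Cy5 and 1.25 over those with it labelled Cy3.

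The 3 genes nearest to HSP12 over the 4 arrays, by the root mean square difference of the log ratios, were all far from it. CHA1, which encodes a serine and threonine deaminase, differed by 0.391 log units and had a mean of 0.863. GCV1, which encodes a subunit of the glycine cleavage complex, differed by 0.646, with a mean of 0.542. PNS1, which encodes a plasma membrane protein, differed by 0.662, with a mean of 0.522. With the sign turned the same distances hold and the means change sign.

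RTC3 encodes a small protein related in structure to the human ribosome assembly factor SBDS, and its mRNA is induced by several stresses. Its log ratios were 0.381, 0.364, 0.458 and 0.531, with a mean of 0.433 ± 0.077 (SD, n = 4), or 2.71-fold if base 10. It held place 16 from the top among the means of all genes (place 16 from the bottom with the sign turned). All 4 arrays lay above the highest HOR7 value. HOR7 encodes a small protein that responds to high osmolarity, and its close relative is DDR2. HOR7 had 0.245, 0.282, 0.252 and 0.239, with a mean of 0.254 ± 0.0191 (SD, n = 4), or 1.80-fold if base 10. The SD of HOR7 was the lowest of the 9 genes, lower than the median SD over all genes of 0.0505. The arrays of HOR7 did not overlap those of HSP26, the next gene in the order.

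HSP26 and HSP42 encode small heat shock proteins of the alpha-crystallin family, which bind unfolding proteins and keep them open to refolding. HSP26 had 0.117, 0.113, 0.0582 and -0.0151, with a mean of 0.0684 ± 0.0618 (SD, n = 4). It was above 0 on 3 arrays and near 0 on array 4. HSP42 had -0.223, -0.25, -0.122 and 0.119, with a mean of -0.119 ± 0.168 (SD, n = 4). HSP42 was below 0 on arrays 1 to 3 and above 0 on array 4, so its mean depends on that array: without replicate 4 it was -0.198, without replicate 2 it was -0.0751, and over arrays 3 and 4 alone it was -0.00128. On arrays 1 to 4 HSP26 minus HSP42 was 0.34, 0.364, 0.18 and -0.135, so the order of the pair held on 3 arrays and turned on array 4.

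SIP18 and GRE1 are related genes for hydrophilins, very water-loving proteins that accumulate under drying and osmotic stress. SIP18 had 0.202, 0.0231, -0.0262 and -0.0727, with a mean of 0.0316 ± 0.12 (SD, n = 4). Array 1 alone was high, and the mean was -0.0253 without replicate 1, 0.0508 without replicate 3 and 0.0663 without replicate 4. GRE1 had 0.061, 0.00803, 0.0228 and 0.0158, with a mean of 0.0269 ± 0.0235 (SD, n = 4), all close to 0, and a mean of 0.0155 without replicate 1. The mean of SIP18 minus GRE1 was 0.00463 ± 0.1 (SD, n = 4), and SIP18 was higher on arrays 1 and 2 and lower on arrays 3 and 4. Whether probes of such related genes share signal was not tested, as probe sequences were not used here.

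HSP30 encodes a membrane protein that is induced by heat, ethanol and weak acid and holds down the activity of the proton pump Pma1. Its log ratios were -0.294, -0.128, -0.157 and -0.214, with a mean of -0.198 ± 0.0732 (SD, n = 4), or 1.58-fold lower if base 10. Every array was below 0, with array 1 the lowest. DDR48 encodes a protein whose mRNA rises after DNA damage and heat shock. DDR48 had -0.453, -0.405, -0.271 and -0.32, with a mean of -0.362 ± 0.082 (SD, n = 4), or 2.30-fold lower if base 10. It held place 63 from the bottom among the means of all genes (place 63 from the top with the sign turned), and on each array it lay below 0, with arrays 1 and 2 the lower ones.

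A further row, YMR173W-A, is a reading frame that overlaps DDR48 and was looked at after its value was seen. It had -0.437, -0.351, -0.238 and -0.271, with a mean of -0.324 ± 0.0889 (SD, n = 4). DDR48 minus this row was -0.0383 ± 0.0173 (SD, n = 4), so the rows ran side by side on every array. The rows of overlapping genes may report the same RNA, which was not tested.

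**Figure D2:**
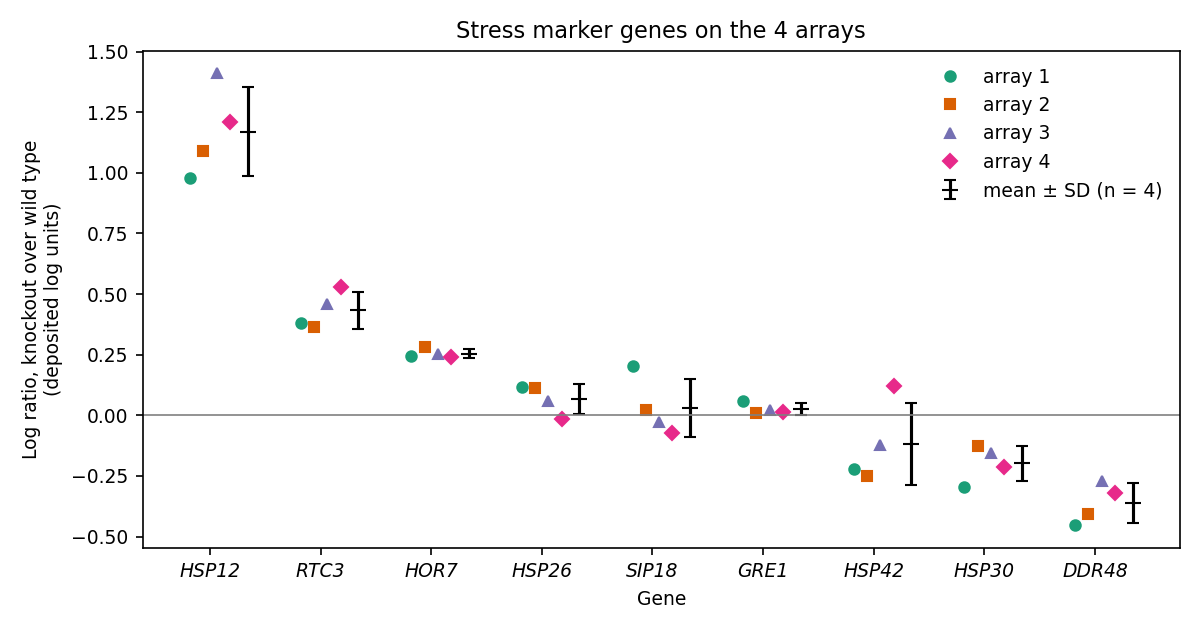
Log ratios of knockout over wild type (vertical axis, deposited log units) for the 9 measured stress marker genes (horizontal axis, ordered by mean), with 1 symbol for each of the 4 arrays and the mean ± SD (n = 4) in black. HSP12 sits between 0.98 and 1.41, RTC3 and HOR7 lie above 0 on every array, HSP30 and DDR48 below 0 on every array, and HSP42 has 1 array at 0.119 and 3 below 0.

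In the order of the means, HSP12, RTC3, HOR7 and HSP26 followed each other with no overlap of the arrays of neighbours. From HSP26 downward, each gene overlapped the next in the order: HSP26, SIP18, GRE1, HSP42, HSP30 and DDR48. DDR48 lay below HSP30 on all 4 arrays, by 0.164 ± 0.0786 (SD, n = 4), although their ranges overlapped. The largest SDs were those of HSP12 at 0.183 and HSP42 at 0.168, above 98.4% and 98.1% of the SDs of all genes. Over the 9 genes the median of the means was 0.0316 and the median of their sizes was 0.198, beside 0.00189 and 0.0679 over all genes tested. Of the 9, 6 had the same sign on every array, 4 above 0 and 2 below. The same held for 56.6% of all genes with the arrays that measured them. Turning the arrays fixes the sign of LOC1 by construction, and how far it sets that share was not tested.

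**Figure D3:**
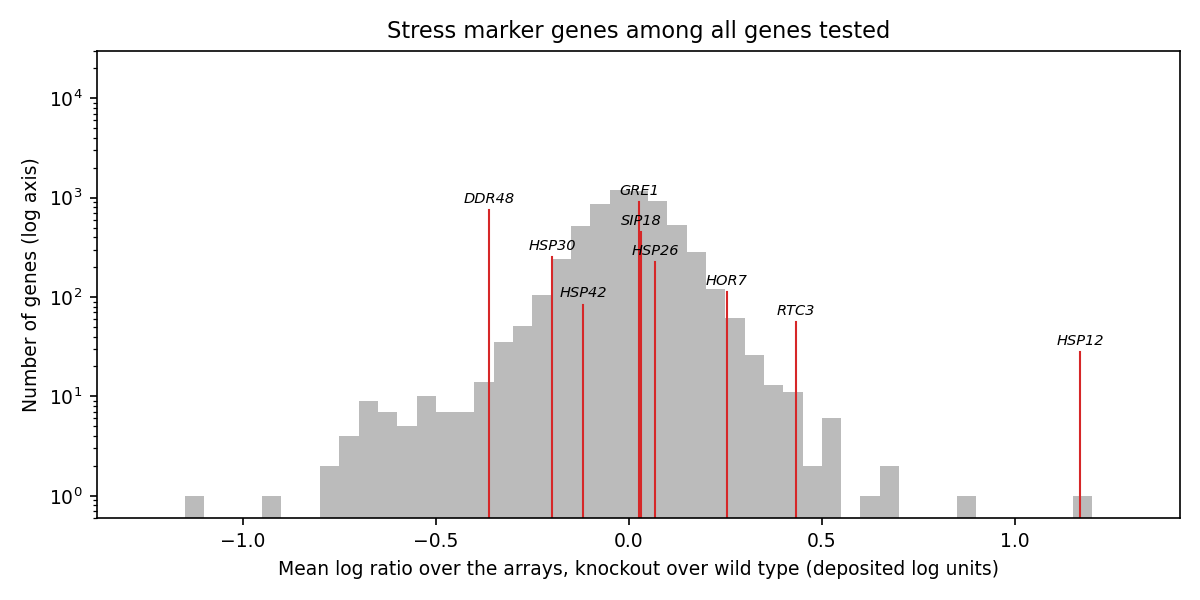
Number of genes (vertical axis, log scale) in bins of the mean log ratio of knockout over wild type (horizontal axis, deposited log units) for the 6205 genes tested, with red lines at the means of the 9 stress marker genes; the height of a line has no meaning and only holds the name. HSP12 at 1.17 stands alone at the right end, while GRE1, SIP18 and HSP26 lie within the bulk of genes.

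The genes next to each marker on its chromosome were also read, by their order in the RefSeq gene table. HSP12 lies between YFL015C, which had a mean of 0.219 ± 0.144 (SD, n = 4), and IES1, which encodes a subunit of the INO80 chromatin remodelling complex and had -0.08 ± 0.0462 (SD, n = 4). YFL015C rose (adjusted p = 0.0085 in limma) and IES1 fell (adjusted p = 0.034 in limma), but IES1 did not pass without replicate 2, 3 or 4 (adjusted p = 0.097, 0.12 and 0.098). HSP12 and LOC1 lie on the same chromosome, VI, with 15 protein-coding genes between them. Of the 12 of these that were measured, 2 rose and 4 fell (4 and 2 with the sign turned), and their median was 0.00911. Over all genes, 22.5% rose and 21.7% fell. RTC3 lies beside RPF1, which encodes an assembly factor of the large ribosomal subunit and rose by 0.263 (adjusted p = 0.0017 in limma). DDR48 has HOT1 and PAI3 as its neighbours, at -0.00692 and -0.0212, and neither passed (adjusted p = 0.85 and 0.48 in limma). PAI3 is also the neighbour of SIP18.

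To place the markers among other stress genes, 7 lists that hold none of them were read from the same fit. The lists hold 154 genes, and 8 of these are in more than 1 list, so the lists are not independent. HSP78, HSP104, SSA4 and SSE2 all fell and count in both the general stress and the chaperone lists. Of 49 genes of the general stress response, 10 rose and 13 fell (13 and 10 with the sign turned), and 26 did not pass. These shares of 20.4% and 26.5% lay near those over all genes, 22.5% and 21.7%. Their median was -0.0353, beside 0.00189 over all genes tested. APE1, which encodes a vacuolar aminopeptidase, had -0.453, -0.422, -0.45 and -0.541 and fell most, at -0.467 ± 0.0515 (SD, n = 4, adjusted p = 2.7e-05 in limma). CYC7, a cytochrome c form of low oxygen, had 0.152, 0.386, 0.355 and 0.273 and rose by 0.292 (adjusted p = 0.00088 in limma). SPI1, which encodes a cell wall protein of late growth, rose by 0.280 (adjusted p = 0.00088 in limma). GPD1, which encodes the first enzyme of glycerol synthesis, fell by 0.285 (adjusted p = 0.0012 in limma). The split depended on the arrays: 4 rose and 11 fell on arrays 1 and 2 alone, and 19 rose and 12 fell on arrays 3 and 4 alone, and that difference was not tested. Without replicate 1, 8 fell.

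Chaperone genes under Hsf1 were mostly lower. Of 26, 19 fell and 2 rose (2 and 19 with the sign turned), with a median of -0.189. They made up 73.1% and 7.69% of the list, beside 21.7% and 22.5% of all genes. KAR2, the Hsp70 of the endoplasmic reticulum, fell by 0.394 ± 0.0278 (SD, n = 4, adjusted p = 3e-05 in limma), with -0.428, -0.362, -0.386 and -0.399 on the 4 arrays. SSC1, the Hsp70 of mitochondria, fell by 0.348 (adjusted p = 0.00022 in limma). SSE1, which encodes a cytosolic exchange factor of Hsp70, fell by 0.329 (adjusted p = 5.4e-05 in limma), and SSA1, a cytosolic Hsp70 gene, fell by 0.319 (adjusted p = 6.3e-05 in limma). The 2 that rose, named after their values were seen, were HCH1 at 0.118 and AHA1 at 0.0849, which encode related activators of Hsp90. AHA1 did not pass without replicate 1 (adjusted p = 0.060) or 3 (adjusted p = 0.072).

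Of 15 genes of osmotic stress, 3 rose and 4 fell (4 and 3 with the sign turned), beside 22.5% and 21.7% of all genes, and their median was -0.0431. GRE2, which encodes a reductase induced by several stresses, had -0.309, -0.288, -0.326 and -0.316 and fell by 0.310 ± 0.0162 (SD, n = 4, adjusted p = 6.2e-05 in limma). GPD1, counted among the general stress genes too, fell by 0.285 (adjusted p = 0.0012 in limma). HXT1, a low-affinity glucose transporter gene, fell by 0.213 (adjusted p = 0.0011 in limma). STL1, the glycerol importer gene, had 0.222, 0.0334, 0.126 and 0.179 and rose by 0.140 (adjusted p = 0.010 in limma). HOR7, an osmotic stress marker, was higher on every array, while SIP18 and GRE1 lay near 0.

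Of 12 measured genes that respond to DNA damage, 5 fell and 1 rose (1 and 5 with the sign turned), with a median of -0.0658, and HUG1 was not analysed here. Shares of 41.7% lower and 8.33% higher stood beside 21.7% and 22.5% of all genes. The count of falls was 3 without replicate 1 and 2 without replicate 4. RNR2, RNR3 and RNR4 encode ribonucleotide reductase subunits and fell by 0.0939, 0.119 and 0.150 (adjusted p = 0.020, 0.0088 and 0.0016 in limma). RNR2 did not pass without replicate 3 (-0.0827, adjusted p = 0.090) or without replicate 4 (-0.0773, adjusted p = 0.086). SML1, which encodes an inhibitor of ribonucleotide reductase, rose by 0.142 (adjusted p = 0.0019 in limma). DDR48, at -0.362, lay lower than every gene of this list, the lowest of which was RNR4 at -0.150 (with the sign turned, higher than every gene of the list).

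Genes for the regulators of the stress routes had 2 of 31 risen and 16 fallen (16 and 2 with the sign turned), with a median of -0.0626. As shares these were 6.45% and 51.6%, beside 22.5% and 21.7% of all genes. MSN4, a transcription factor of the general stress response, had 0.198, 0.194, 0.202 and 0.201 and rose by 0.199 ± 0.00366 (SD, n = 4, adjusted p = 0.00034 in limma). The other riser was PDE2, a cyclic AMP phosphodiesterase gene, at 0.0783 (adjusted p = 0.048 in limma). PDE2 did not pass without replicate 1, 3 or 4 (adjusted p = 0.065, 0.16 and 0.19). MSN2 at -0.00484 and HSF1 at -0.0107 did not pass. RAS2, which encodes an activator of cyclic AMP synthesis, fell by 0.226 (adjusted p = 0.00089 in limma). SNF1, the kinase gene of growth without glucose, fell by 0.173 (adjusted p = 0.00099 in limma), and SLN1, the osmosensor gene, fell by 0.158 (adjusted p = 0.0011 in limma).

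Among 7 genes whose products are related to the markers or act with them, 2 rose and 2 fell (also with the sign turned). That is 28.6% each way, beside 22.5% higher and 21.7% lower over all genes. SDO1, the yeast counterpart of the human SBDS gene and so a relative of RTC3, had 0.379, 0.405, 0.354 and 0.332. It rose by 0.367 ± 0.0314 (SD, n = 4, adjusted p = 4.2e-05 in limma). PMA1, the proton pump gene on whose product Hsp30 acts, had -0.136, -0.138, -0.135 and -0.146 and fell by 0.139 (adjusted p = 0.0016 in limma). MRH1 and YRO2, which encode membrane proteins related to Hsp30, had -0.0971 and 0.0773 (adjusted p = 0.021 and 0.042 in limma). MRH1 did not pass without replicate 2, 3 or 4 (adjusted p = 0.051, 0.081 and 0.090). YRO2 did not pass without replicate 1 or 3 (adjusted p = 0.15 and 0.14). For the list, 1 rose without replicate 1 or 3, and 1 fell without replicate 2, 3 or 4.

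HSP12 and SPI1 are also known to rise as cells run out of glucose, so genes of that growth stage were read beside them. Of 22, 8 rose and 7 fell (7 and 8 with the sign turned), with a median of 0.00992 and medians on single arrays between -0.00487 and 0.00803. These were 36.4% and 31.8% of the list, beside 22.5% and 21.7% of all genes. REG2, a phosphatase regulator gene, had -0.581, -0.494, -0.48 and -0.445 and fell to the lowest mean of these lists, the highest with the sign turned (adjusted p = 2.6e-05 in limma). ADH2, which encodes the alcohol dehydrogenase that consumes ethanol, fell by 0.323 (adjusted p = 6.2e-05 in limma). HXT5, a hexose transporter gene, fell by 0.244 (adjusted p = 0.00063 in limma). MDH2, the cytosolic malate dehydrogenase gene, rose by 0.255 (adjusted p = 0.00034 in limma). Without replicate 1, 4 of the list rose, and without replicate 3, 5 did.

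**Figure D4:**
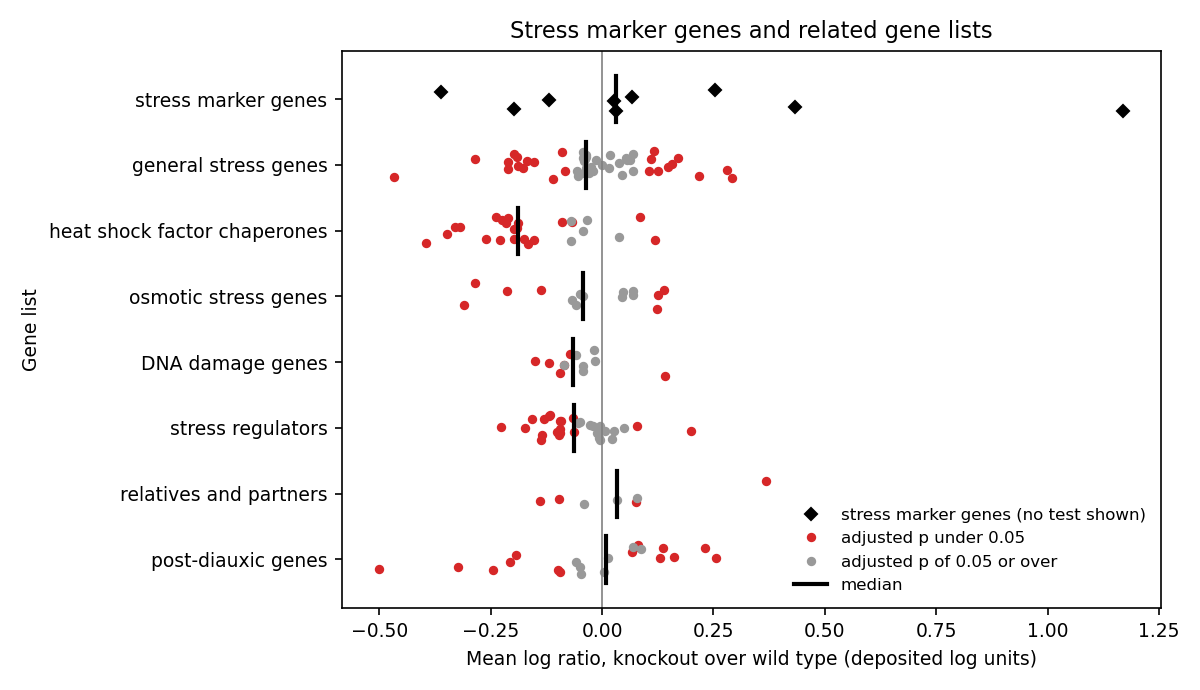
Mean log ratio of knockout over wild type (horizontal axis, deposited log units) of each gene in the stress marker set and in 7 other lists (vertical axis), with red for genes past the threshold in limma, grey for the rest, black diamonds for the stress markers, which are shown with no test, and a bar at each list's median. The chaperone list has its median at -0.189, the other lists have medians between -0.0658 and 0.033, and HSP12 lies beyond every gene of these lists.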

How the data were processed

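The deposited log10 ratios of the 2 channels, 1 per gene and array, were used as the authors gave them. Base 10 was inferred from the values, which end at a size of 2 (22 values in 17 genes), while the sources used here name no base, scanner, background correction or normalization, so folds are given "if base 10". The number of arrays sets the limit on precision. The table had 6210 rows, 3 of them controls that were left out, and arrays held 6198 to 6207 values. Symbols came from the RefSeq table of R64, which matched 5654 of 6207 rows. It also gave the chromosome and the order of genes, and no coordinates are printed.

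Each column was turned to place LOC1 below 0. Genes with a value on at least 3 arrays (6205) were fitted in R 4.3.3 with limma 3.58.1 (lmFit, then eBayes), testing each gene's mean against 0 on both sides. Benjamini-Hochberg adjusted p-values under 0.05 passed. The script was tested on simulated data. Each array pairs 1 knockout with 1 wild-type culture, so the pairing is within the ratio.

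The set, the lists and the rule for named genes were chosen with earlier results of these data known. The rule took the stress markers, LOC1, up to 4 genes past the threshold with the largest changes in each list (otherwise its 2 lowest p-values) and the 3 genes nearest to HSP12. Genes named beyond it were chosen after their values were seen. Promoter motifs and protein identities were planned and not analysed here. Alternatives covered centring, filtering, moderation, the labelled dye or the deposited sign as a term, values at the limit, turning and subsets of arrays.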

Additional observations from a re-analysis of the deposited data

Results flagged for a closer look

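Of 47 genes checked for 1 array far from the other 3, 3 stood out, none of them among the stress markers. RNR4 had -0.109 on array 1, and the nearest other array was at -0.161, a gap of 0.887 of the gene's whole range. AHA1 had 0.0473 on array 4, with the nearest other array at 0.0935 (0.867 of the range). HSF1 had -0.0549 on array 4, with the nearest other array at 0.0004 (0.873 of the range). Each gap was above Dixon's critical value for 4 samples, which chance exceeds in about 1 in 20 groups.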

How the results depend on the processing

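Of the alternatives, only turning the arrays by the labelled dyes removed the pattern as a whole, and it did so by construction. Turning by the dyes leaves arrays 1 and 2 as in the main fit and gives arrays 3 and 4 the opposite sign. A gene with the same sign on every array in the main fit therefore largely cancels in the mean. With that turning 1 gene passed in limma (1 higher and 0 lower, 72 at an unadjusted p under 0.05), each of the 7 lists had 0 calls in either direction, and LOC1 itself lay at 0.0518. The means are then what remains after that cancelling, and their signs give no direction for a gene. HSP12 was at -0.137 and RTC3 at -0.0611, both opposite in sign to the main mean, with HSP30 at -0.013, DDR48 at -0.0667 and HOR7 at 0.00907. The remaining mean was also opposite in sign to the main mean for APE1 (0.0287), CYC7 (-0.0227), SPI1 (-0.085), SSC1 (0.0421), SSE1 (0.0124), GRE2 (0.0112), HXT1 (0.0496), STL1 (-0.0125), RNR2 (0.0415), RNR3 (0.0425), RNR4 (0.0146), SML1 (-0.000162), MSN4 (-0.00286), SNF1 (0.0204), SLN1 (0.00487), PMA1 (0.00188), MRH1 (0.0331), HXT5 (0.0434), YFL015C (-0.0883), IES1 (0.0116), PDE2 (-0.0465), MSN2 (0.0354), HSF1 (0.0151) and PAI3 (0.0215).

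With arrays 1 and 2 alone, 1185 genes passed, 631 higher and 554 lower, against 2743, 1398 and 1345 on all 4. The lists then had 4 general stress genes, 0 chaperones, 0 osmotic genes, 1 regulator, 1 relative and 3 post-diauxic genes higher, and 0 DNA damage genes, 6 regulators and 1 relative lower. With arrays 3 and 4 alone, 2891 genes passed, 1376 higher and 1515 lower, and 19 general stress genes were higher and 7 osmotic genes lower. Using fewer arrays changes the power by construction. These subsets hold the same number of arrays and still differ in their calls, and the cause of that difference was not tested. Regulators had 1 call higher with centred columns, with the labelled dye as a term or with the deposited sign as a term. Relatives had 1 higher with the labelled dye as a term, and post-diauxic genes 4 higher with the deposited sign as a term. The cause of these differences was not tested. Leaving out 1 array gave 2009 to 2598 genes called and an HSP12 mean of 1.09 to 1.24. The lists then had 8 to 11 general stress genes lower, 1 to 2 chaperones higher, 2 to 5 DNA damage genes lower, 1 to 2 regulators higher, 1 to 2 relatives higher, 1 to 2 relatives lower and 4 to 6 post-diauxic genes higher. Genes that had not passed and lay near 0 also changed sign: with arrays 1 and 2 alone MSN2 was at 0.0306, HSF1 at 0.00441 and PAI3 at 0.00033, and with arrays 3 and 4 alone HOT1 was at 0.00782. Leaving out 1 array gave -0.0205 to 0.0166 for MSN2, -0.0171 to 0.00405 for HSF1 and -0.0185 to 0.0144 for HOT1. The longer promoter motif was not run, as promoters were not analysed here. No separate paired analysis was made because each value is already the ratio of the knockout and wild-type cultures of 1 array, so the main test is paired.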
